A study of Mus musculus with 43 samples.

Results

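Msx3, Npy, Fgf23, Awat1 and Dlk1, 5 genes that are nearly silent in the lungs of saline-treated mice, were followed through house dust mite exposure and antibody treatment. They are 5 of 24475 genes in the deposited count table, found there by NCBI Gene ID. They were picked because they lay under 1 CPM (a counts-per-million value) with saline and far above it under mite, so the difference between mite and saline is given below as a description and was not tested. Whole lungs of 43 mice had been sequenced. In every group the animals were female and of mixed 129S6 and C57BL/6 origin, and the labels give their age as 8 to 12 weeks. For mice with 19 weeks of mite this cannot be the age at which the lungs were taken. For work with the human antibodies, the Il4, Il33 and Il4ra ectodomain of the mice carried human sequence in place of mouse sequence. Mite extract went into the nose 3 times each week. Antibody was added in 4 groups that received mite for 19 weeks: anti-IL-33 (itepekimab) together with anti-IL-4Ra (dupilumab), called the combination (n = 5), anti-IL-4Ra with isotype antibody (n = 7), anti-IL-33 with isotype antibody (n = 6), and isotype antibody alone (n = 7). Mite without antibody was given for 19 weeks (n = 7) or 11 weeks (n = 6), and saline went to 5 mice for a time that the labels do not state. The labels do not say when antibody treatment began, and the design text names 3 possible starts and exposures other than 11 weeks. No label says outright that each lung came from a separate animal, so p-values measure the spread between these 43 samples.

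IL-33 is an alarm cytokine released by damaged epithelium, and IL-4Ra is the receptor chain through which IL-4 and IL-13 signal by way of the transcription factor STAT6. The 5 genes belong to no common pathway. Msx3 encodes a homeobox transcription factor known from the dorsal neural tube of the mouse embryo. Npy encodes neuropeptide Y, a peptide transmitter of brain and sympathetic nerves. Fgf23 encodes a hormone made mainly by osteocytes, which acts on the kidney through FGF receptors and the co-receptor klotho to lower phosphate and active vitamin D. Dlk1 encodes a membrane protein with EGF-like repeats, related to the Notch ligands, that holds back fat cell formation and is expressed from the paternal allele. Awat1 encodes an acyltransferase that joins fatty alcohols and fatty acids into wax esters, an activity known from skin glands.

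On the mm10 genome Msx3 (Gene ID 17703) lies at chr7:140046157-140049088 on the minus strand, and the others lie on the plus strand. Npy (109648) is at chr6:49822710-49829507, Fgf23 (64654) at chr6:127072902-127082296, Awat1 (245533) at chrX:100572247-100578206 and Dlk1 (13386) at chr12:109452485-109463336. All 5 are annotated as protein coding, and no other gene of the count table was found to overlap them. Annotated genes outside that table were not searched. The 250 bases before the start site of 4 of them are shown because 3 of these genes, Msx3, Fgf23 and Dlk1, were lower in every mouse of the combination than in every isotype mouse, while Awat1 was not. Of all genes tested 2.55% were lower in every mouse, and nothing is read from the share among the 5. The sequences are RefSeq's for GRCm38.p6, the assembly behind mm10, read 5′ to 3′ toward the gene, and capitals mark matches to the motifs searched.
Msx3: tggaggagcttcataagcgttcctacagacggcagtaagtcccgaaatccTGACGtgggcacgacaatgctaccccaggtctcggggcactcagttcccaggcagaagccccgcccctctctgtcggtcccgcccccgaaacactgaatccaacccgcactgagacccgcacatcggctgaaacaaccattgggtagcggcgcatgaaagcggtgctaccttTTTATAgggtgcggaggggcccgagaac
Fgf23: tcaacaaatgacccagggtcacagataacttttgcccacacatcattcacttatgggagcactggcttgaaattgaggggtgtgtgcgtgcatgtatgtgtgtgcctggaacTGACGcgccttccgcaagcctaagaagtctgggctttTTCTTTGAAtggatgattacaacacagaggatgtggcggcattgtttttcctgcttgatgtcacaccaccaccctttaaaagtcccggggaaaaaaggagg
Dlk1: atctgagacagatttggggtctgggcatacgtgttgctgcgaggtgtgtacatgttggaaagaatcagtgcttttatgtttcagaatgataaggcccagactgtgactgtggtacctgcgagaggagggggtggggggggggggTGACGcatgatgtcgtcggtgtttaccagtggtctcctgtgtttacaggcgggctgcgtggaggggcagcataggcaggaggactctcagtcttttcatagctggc
Awat1: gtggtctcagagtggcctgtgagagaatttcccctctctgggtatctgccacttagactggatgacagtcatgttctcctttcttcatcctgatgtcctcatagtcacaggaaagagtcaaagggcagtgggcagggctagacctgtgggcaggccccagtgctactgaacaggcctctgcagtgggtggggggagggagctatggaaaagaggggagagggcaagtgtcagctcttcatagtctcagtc
They come from chr7:140049089-140049338 (minus strand), chr6:127072652-127072901, chr12:109452573-109452822 and chrX:100571997-100572246 (plus strand); the Dlk1 window ends inside the annotated gene span because its start site there is a later one. Both strands were searched for a TATA box (TATAAA), the STAT motif TTCNNNGAA, the STAT6 motif TTCNNNNGAA, the AP-1 motif TGANTCA and the CRE half-site TGACG. Msx3 held a TATA box 28 bases before its start, on the opposite strand, a motif found in 12.4% of 32851 promoters. Fgf23 held TTCTTTGAA, a STAT match, 101 bases before its start, a motif found in 7.02% of promoters. TGACG stood in the windows of Msx3, Fgf23 and Dlk1 and in 17.8% of all promoters. STAT6 and AP-1 letters were in none of the 5 windows, Npy's included, and in 5.85% and 6.75% of all promoters; Awat1 and Npy matched none of the motifs. The windows differed in base composition: Awat1 had 0 CpG pairs and Fgf23 6, against 18 in Msx3, 21 in Npy and 8 in Dlk1, with a median of 6.0 over all promoters.

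Libraries held 11932579 to 26749395 counts. CPM were scaled to TMM library sizes, and SD is the spread between mice. In 10 libraries genes with GC-rich transcripts were shifted upward, by a slope above 0.75 log2 units per 10 percentage points of GC: 3 of the combination, 3 of anti-IL-4Ra, 2 of anti-IL-33 and 2 of 19 weeks of mite. No isotype, 11-week or saline library was among them. The slope lay below 0 with saline (mean -0.624 ± 0.179, SD, n = 5) and at 11 weeks (-0.376 ± 0.197, n = 6). At 19 weeks it averaged 0.168 ± 0.546 (n = 7), with isotype -0.131 ± 0.273 (n = 7) and with the combination 0.333 ± 0.88 (n = 5). The part of this slope in the comparisons with saline was not tested. One anti-IL-4Ra library carried 174000 CPM of 7 erythroid and platelet markers.

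Of 6810 genes under 1 CPM in saline, 93 were at or above the lowest of the 5 genes in mean CPM over the 13 mice with mite and no antibody, and in 75 of these 93 every such mouse was above every saline mouse. Ordered by that mean, which is not corrected for gene length, Dlk1 stood at place 2, Awat1 at 6, Npy at 7, Fgf23 at 13 and Msx3 at 93. Next inside were Il6 (3.95 CPM) and Vash2 (3.94 CPM), then Msx3 itself (3.92 CPM), and next outside Megf11 (3.89 CPM) and Nrp (3.82 CPM). Msx3 is thus one of many genes of like level, while the other 4 stand among the highest.

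**Figure D1:**
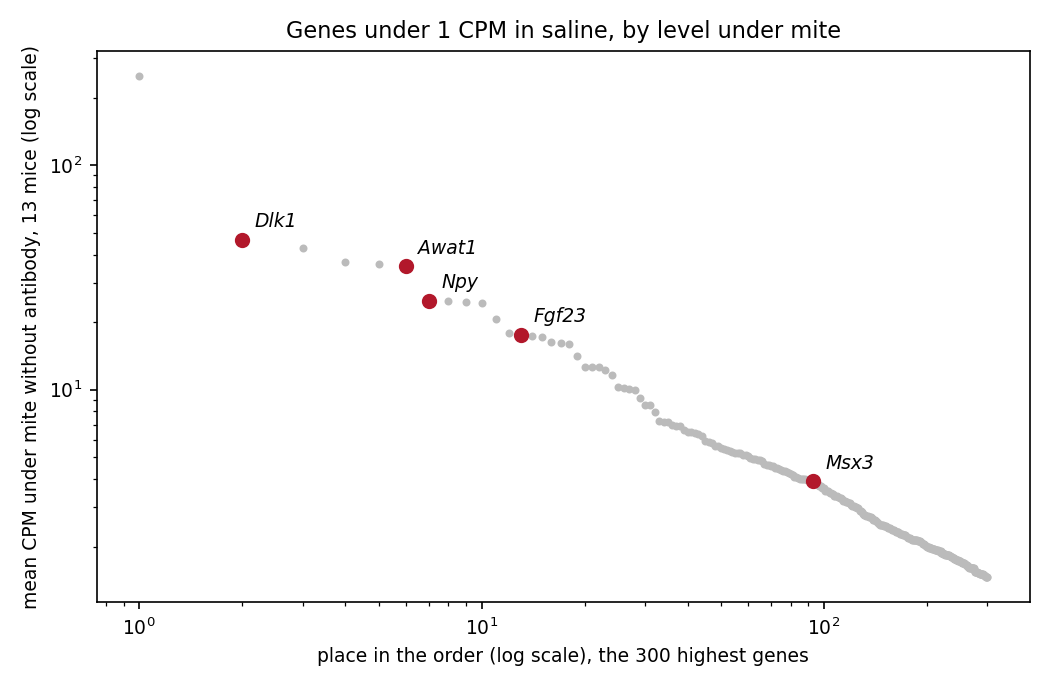
The 300 highest genes among the 6810 under 1 CPM in saline, placed by mean CPM over 13 mite-exposed mice without antibody; both axes are log scales and the 5 genes are red. Dlk1, Awat1, Npy and Fgf23 lie between places 2 and 13 and Msx3 at place 93.

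With saline the 5 genes were at or near 0. Msx3 had 0 counts in all 5 saline libraries, and the 5 saline libraries together held 4 counts of Npy, 6 of Fgf23, 11 of Awat1 and 16 of Dlk1. Of the 11 Awat1 counts 8 came from replicate 1, and of the 16 Dlk1 counts 13 came from replicate 3. Every mouse of the anti-IL-4Ra, anti-IL-33, isotype, 19-week and 11-week groups was above every saline mouse for all 5 genes. Across all 15979 genes tested, every mouse was higher than every saline mouse for 10.4% of genes with anti-IL-4Ra, 12.3% with anti-IL-33, 13.5% with isotype, 13.9% at 19 weeks and 11.1% at 11 weeks; nothing is read from this for genes selected on that difference. In the combination this held for Npy and Awat1 alone among the 5, against 8.07% of all genes. All 5 passed the filter on low counts, which they could do only through the groups where they are high. Since whole lung was sequenced, more cells of a type and more RNA per cell cannot be told apart.

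Msx3, the homeobox gene, had 0.0932, 0.133, 0, 0.121 and 0.155 CPM in the 5 combination mice, from 0 to 2 counts each. Anti-IL-4Ra mice ran from 0.267 through a median of 1.54 to 2.7 CPM, anti-IL-33 mice from 0.312 through 1.73 to 2.03 CPM, and isotype mice from 0.467 through 1.59 to 4.64 CPM. With mite alone it ran from 1.42 through 3.0 to 4.18 CPM at 19 weeks and from 3.1 through 5.26 to 7.75 CPM at 11 weeks, against 0 in every saline mouse. The combination lay below every other mite group without overlap, with 1 mouse at the saline value. Set against a floor of 3 counts over the saline group, the mean level was at least 111-fold higher at 19 weeks and at least 222-fold higher at 11 weeks than in saline, and at least 4.15-fold higher with the combination. Bounds of this kind cover counting error only. The means at 19 and 11 weeks, 2.68 ± 1.01 (SD, n = 7) and 5.37 ± 2.11 CPM (SD, n = 6), came from mice that overlapped.

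Fgf23, the phosphate-lowering hormone, had 0.28, 0.733, 0.32, 0.91 and 0.0773 CPM in the combination mice, or 37 counts in all. Isotype mice ran from 3.76 through 13.7 to 25.6 CPM, mice with 19 weeks of mite from 3.9 through 12.8 to 54.6 CPM and those with 11 weeks from 2.22 through 18 to 44.5 CPM. Saline mice had 0.048, 0, 0.138, 0.0389 and 0 CPM. The combination mice lay below all mice of these 3 mite groups, and 1 of them lay within the saline range. The single antibodies spread widely: anti-IL-4Ra mice ran from 0.267 through 10.2 to 14.2 CPM and anti-IL-33 mice from 0.518 through 2.17 to 10.5 CPM. The anti-IL-4Ra group fell into 3 low mice with 0.267, 0.914 and 0.731 CPM and 4 high mice between 10.2 and 14.2 CPM. The 3 low mice are the 3 libraries with a GC slope above 0.75. Whether that slope plays a part in the Fgf23 level was not tested.

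Dlk1, the non-canonical Notch ligand, spread widely within groups. Combination mice had 1.3, 0.4, 0.0457, 0.182 and 1.62 CPM. Isotype mice ran from 1.97 through 11.3 to 61.4 CPM, and mice with 19 weeks of mite from 1.97 through 31.7 to 284 CPM, a 144-fold range within that group in which replicates 1 and 2 had 284 and 188 CPM. At 11 weeks Dlk1 ran from 0.736 through 8.07 to 10.1 CPM, and in the saline mice it was 0, 0.0551, 0.449, 0.0778 and 0 CPM. Anti-IL-4Ra mice ran from 1.48 through 4.97 to 25.1 CPM and anti-IL-33 mice from 0.797 through 3.2 to 73.6 CPM. Of the 5 combination mice, 3 were within the saline range, and none reached the lowest isotype mouse.

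Npy, the peptide transmitter, had 16.5, 13, 16.8, 4.49 and 19.1 CPM in the combination mice, all far above the highest saline mouse at 0.0691 CPM. Anti-IL-4Ra mice were the most alike, from 15.9 through 19.8 to 25.9 CPM, while anti-IL-33 mice ran from 2.75 through 13.3 to 79.9 CPM. Isotype mice ran from 9.52 through 37.7 to 110 CPM. With mite alone Npy ran from 14.2 through 34.2 to 50 CPM at 19 weeks and from 2.36 through 11.1 to 28.1 CPM at 11 weeks. All mite groups overlapped one another.

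Awat1, the wax ester enzyme, overlapped between all mite groups. Combination mice had 55.6, 18.8, 49.8, 92.0 and 57.2 CPM. Anti-IL-4Ra mice ran from 42.4 through 54.1 to 110 CPM, anti-IL-33 mice from 39.0 through 55.9 to 106 CPM and isotype mice from 35.9 through 45.2 to 57.0 CPM. Mice with mite alone ran from 9.51 through 37.6 to 69.0 CPM at 19 weeks and from 19.2 through 29.2 to 54.5 CPM at 11 weeks. Saline mice had 0.384, 0, 0, 0.0389 and 0.066 CPM, more than an order of magnitude below any mite-exposed mouse. Isotype mice were the most alike for this gene, with a mean of 45.7 ± 6.84 CPM (SD, n = 7).

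**Figure D2:**
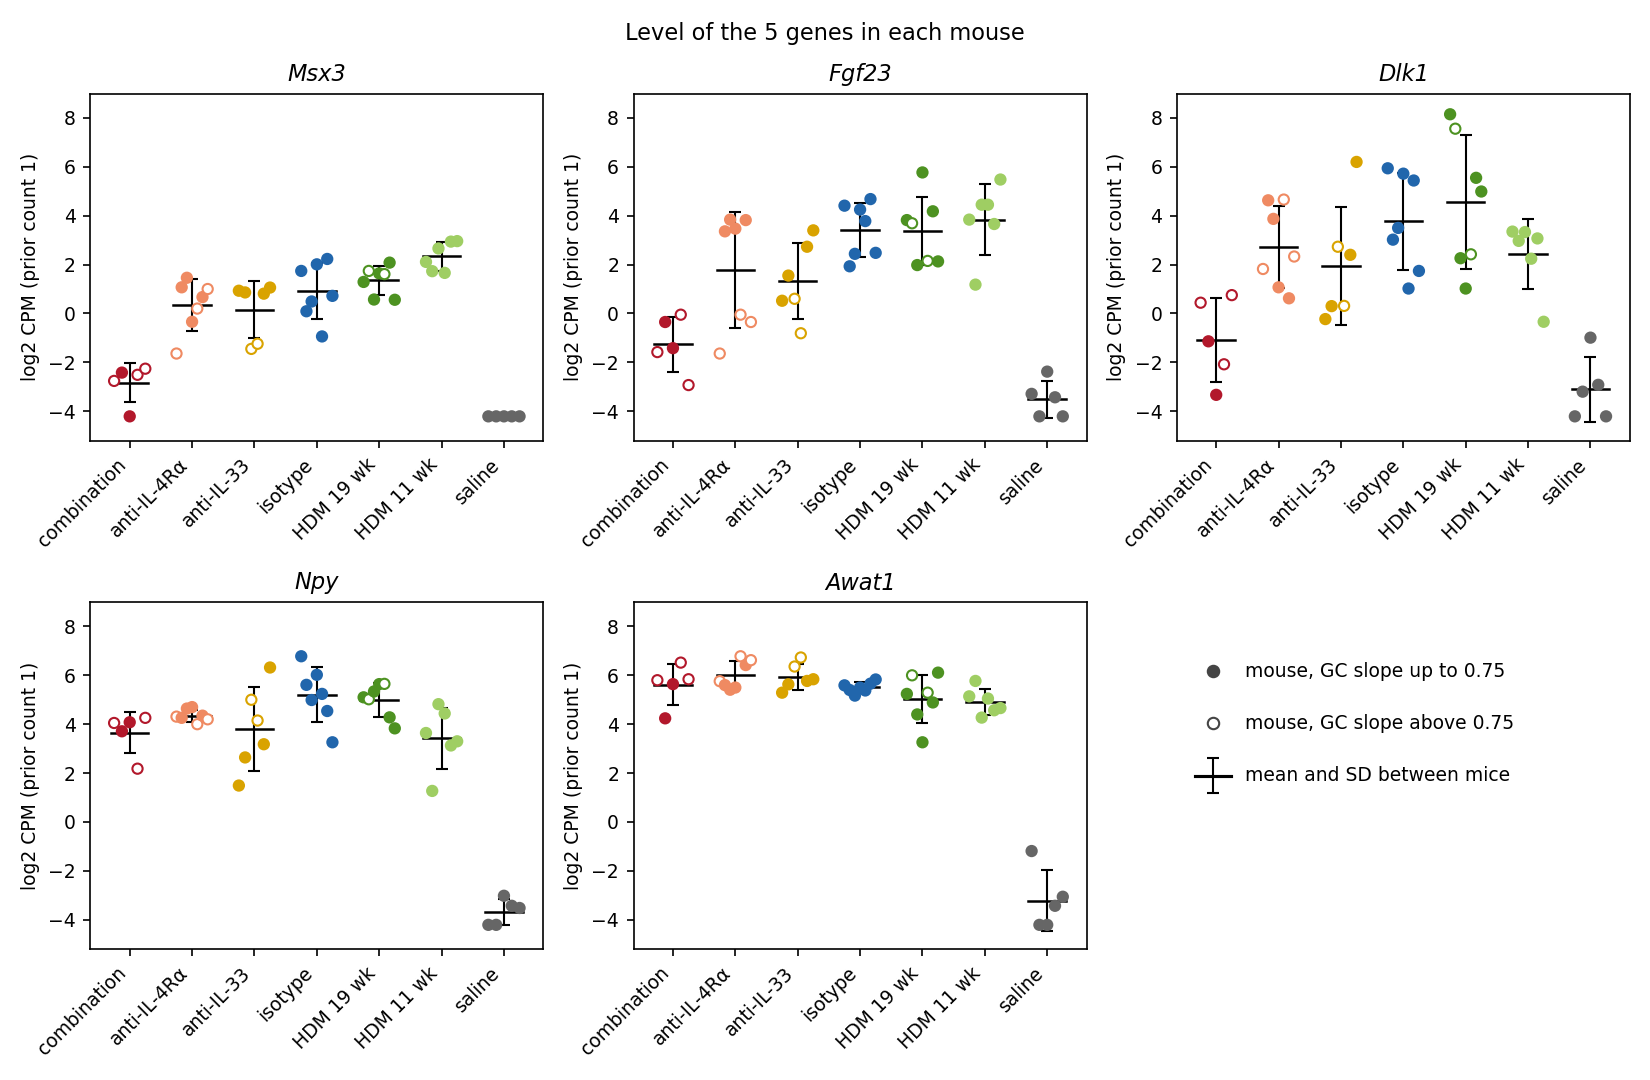
Log2 CPM (prior count 1) of each gene in each of the 43 mice, by group, with the group mean and SD in black; open circles are libraries with a GC slope above 0.75. In the combination 1 mouse for Msx3, 1 for Fgf23 and 3 for Dlk1 lie within the saline range, while for Npy and Awat1 every mite-exposed mouse lies above every saline mouse.

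The combination was compared with isotype to ask what blocking both signals did under chronic mite. Msx3, Fgf23, Dlk1 and Npy fell and Awat1 did not pass the test, by edgeR's quasi-likelihood test with Benjamini-Hochberg adjustment over 15979 genes, where an adjusted p under 0.05 was called. Msx3 averaged 0.1 ± 0.0604 CPM in combination mice and 2.33 ± 1.62 CPM in isotype mice, a log2 fold change of -4.53 ± 0.68 (SE; adjusted p = 0.000767). Fgf23 averaged 0.464 ± 0.345 CPM with the combination and 13.4 ± 8.77 CPM with isotype, a log2 fold change of -4.81 ± 0.97 (adjusted p = 0.00526). Dlk1 averaged 0.711 ± 0.708 CPM with the combination and 26.0 ± 25.5 CPM with isotype, a log2 fold change of -5.28 ± 1.37 (adjusted p = 0.0157). These 3 genes were lower in all 5 combination mice than in all 7 isotype mice. Npy averaged 14.0 ± 5.74 CPM with the combination and 46.6 ± 33.1 CPM with isotype, a log2 fold change of -1.74 ± 0.57 (adjusted p = 0.0365), and the groups overlapped. Awat1 averaged 54.7 ± 26.0 CPM with the combination and 45.7 ± 6.84 CPM with isotype, a log2 fold change of 0.26 with a 95% interval of -0.54 to 1.05 (adjusted p = 0.625).

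Of the 5 genes 4 fell, where 6.32% of all genes tested did and 12.6% rose, and 3 of the 5 were lower in every mouse, where 2.55% of all genes were. It is not stated whether isotype mice were among the mite-exposed mice on which the 5 genes were chosen. If they were, the genes were picked as high in the group they are compared with here, so nothing is read from their share against that of all genes. With the GC slope as a covariate 1542 of all genes fell and 1005 rose, against 1010 and 2019 without it, and the same 4 of the 5 still passed. The limit on the GC slope was set in the upward direction only. Without the 10 libraries above it 2 combination mice are left, and 1 of them, replicate 2, had a slope of -0.9921. This fit is therefore not free of GC slopes. In it Msx3 (-5.21, adjusted p = 0.00933) and Fgf23 (-4.71, adjusted p = 0.0313) passed the edgeR test. Dlk1 (-7.0, adjusted p = 0.0976) and Npy (-1.63, adjusted p = 0.261) then did not, and Awat1 was at -0.4. Leaving out single libraries in turn, Msx3 and Fgf23 passed edgeR's test each time, with adjusted p up to 0.00334 for Msx3 and 0.0242 for Fgf23. Dlk1 missed it without combination replicate 1 (adjusted p = 0.0547), and Npy missed it without isotype replicate 1 (0.0806) or 2 (0.0551) or combination replicate 1 (0.123), 5 (0.0779) or 8 (0.0776).

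**Figure D3:**
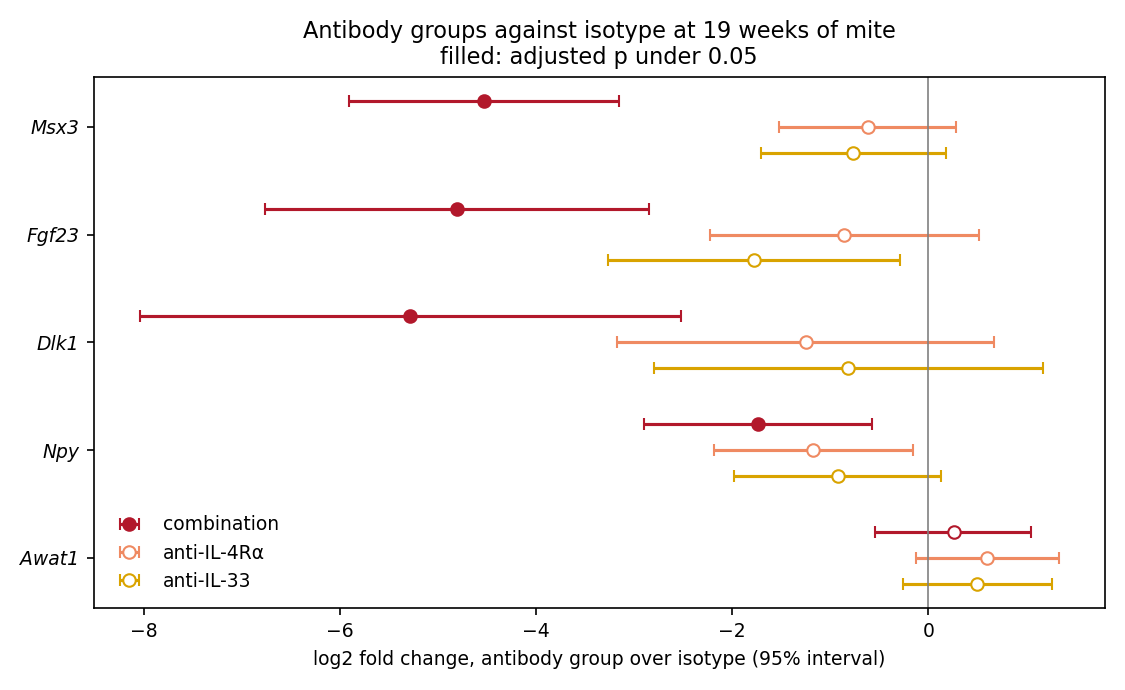
Log2 fold change and 95% interval of each gene in each antibody group over isotype, all at 19 weeks of mite; filled circles have an adjusted p under 0.05 in edgeR's quasi-likelihood test. The filled circles are the combination's for Msx3, Fgf23, Dlk1 and Npy, and no single-antibody circle is filled.

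Neither antibody given with isotype changed any of the 5 genes past the threshold. In both comparisons 0.0% of genes were called by edgeR, with 2242 genes at an unadjusted p under 0.05 for anti-IL-4Ra and 2878 for anti-IL-33, while DESeq2 called 42 higher and 6 lower with anti-IL-4Ra and 17 higher and 2 lower with anti-IL-33. Of the 5, the smallest unadjusted p with anti-IL-4Ra was Npy's, at 20.6 ± 3.57 CPM against 46.6 ± 33.1 CPM with isotype (log2 fold change -1.18 ± 0.5, adjusted p = 0.312 by edgeR), and with anti-IL-33 it was Fgf23's, at 3.89 ± 3.89 CPM against 13.4 ± 8.77 CPM (-1.78 ± 0.74, adjusted p = 0.264 by edgeR). The 95% intervals of the log2 fold changes reached from -1.52 to 0.28 for Msx3 and from -2.23 to 0.52 for Fgf23 with anti-IL-4Ra, and from -1.71 to 0.18 for Msx3 with anti-IL-33. Dlk1 was at -1.25 (-3.17 to 0.67) with anti-IL-4Ra and at -0.82 (-2.8 to 1.17) with anti-IL-33, where replicate 7, with 73.6 CPM, carries most of the mean; without it the value was -3.16. Awat1 was at 0.6 (-0.13 to 1.33) with anti-IL-4Ra and 0.5 (-0.26 to 1.26) with anti-IL-33. Among the 4 anti-IL-4Ra mice without a steep GC slope Fgf23 averaged 12.4 CPM, and among the 3 with one 0.638 CPM, against 13.4 CPM with isotype.

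Set against each single antibody, the combination differed in Msx3. Msx3 was lower in every combination mouse than in every anti-IL-4Ra mouse (log2 fold change -3.91 ± 0.68, adjusted p = 0.0133 by edgeR) and every anti-IL-33 mouse (-3.76 ± 0.69, adjusted p = 0.0207). Among all genes 0.1% and 0.0438% were called lower in these 2 comparisons, and 0.169% and 0.144% were lower in every mouse. These calls rest on few counts: against anti-IL-33 the adjusted p ran from 0.0519 to 0.117 without any one of the 5 combination mice or without anti-IL-33 replicate 2, and against anti-IL-4Ra it was 0.084 and 0.0597 without combination replicate 3 or 5 and 0.168 with those groups fitted alone. With the combination and anti-IL-33 fitted alone, Msx3 did not pass the filter on low counts and was not tested. Without the 10 steep libraries Msx3 was at -4.83 against anti-IL-4Ra (adjusted p = 0.0421) and -4.88 against anti-IL-33 (adjusted p = 0.0251). Fgf23 was at -3.95 ± 0.94 against anti-IL-4Ra (adjusted p = 0.0753 by edgeR) and at -3.03 ± 0.93 against anti-IL-33 (adjusted p = 0.566), and DESeq2 called the first of these (adjusted p = 0.000488). Dlk1 was at -4.03 ± 1.31 against anti-IL-4Ra (adjusted p = 0.23) and at -4.46 ± 1.34 against anti-IL-33 (adjusted p = 0.544), or -2.12 without anti-IL-33 replicate 7. Against anti-IL-4Ra and anti-IL-33 in that order, Npy was at -0.56 and -0.81, and Awat1 at -0.34 and -0.24.

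Whether the effect of both antibodies differed from the sum of the single effects was tested as an interaction on the log2 scale. None of the 5 genes was called, with 0.0% of all genes called by edgeR, 321 at an unadjusted p under 0.05, and 4 by DESeq2, all below 0. Msx3 was at -3.14 ± 0.83 (95% interval -4.81 to -1.48, adjusted p = 0.995), Dlk1 at -3.21 (-6.38 to -0.04) and Fgf23 at -2.17 (-4.45 to 0.11). Npy was at 0.36 (-1.15 to 1.88) and Awat1 at -0.84 (-1.95 to 0.27). Anti-IL-4Ra against anti-IL-33 gave no call either, with 0.0% of genes called by edgeR, 409 at an unadjusted p under 0.05, and 1 higher and 2 lower by DESeq2; the 5 log2 differences ran from -0.44 for Dlk1 to 0.93 for Fgf23. Isotype antibody against 19 weeks of mite alone gave 0.0% of genes called by edgeR, with 341 at an unadjusted p under 0.05 and 2 higher and 2 lower by DESeq2. Dlk1 was furthest apart there, at 26.0 ± 25.5 CPM with isotype and 80.5 ± 111 CPM with mite alone (-1.63, 95% interval -3.55 to 0.29).

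Over the 38 mite-exposed mice Msx3 and Fgf23 varied together. Their log2 CPM correlated with Pearson's r = 0.8 (permutation p = 1e-05, the smallest the permutations could give; adjusted over 10 pairs 0.0001) and Spearman's rho = 0.793 (permutation p = 1e-05), and r was 0.763 without the 2 mice farthest from the median of Msx3. With each group's mean removed r was 0.53 (permutation p = 0.00162, adjusted p = 0.0162) and rho 0.532 (permutation p = 0.00155), and without the 10 steep libraries as well r was 0.521 (permutation p = 0.00445, adjusted p = 0.0229). Msx3 and Dlk1 had r = 0.601 over the mice (permutation p = 7e-05, adjusted p = 0.00035; rho = 0.535, permutation p = 0.00057; r = 0.5 without the 2 farthest mice) and r = 0.373 within groups (permutation p = 0.0307, adjusted p = 0.102). Fgf23 and Awat1 ran opposite, with r = -0.476 over the mice (permutation p = 0.00235, adjusted p = 0.00587; rho = -0.504, permutation p = 0.00147; r = -0.493 without the 2 farthest mice) and r = -0.411 within groups (permutation p = 0.0149, adjusted p = 0.0745). The same 2 genes lay opposite along the GC slope of the libraries, with r = -0.512 for Fgf23 and 0.595 for Awat1 over the 38 libraries as a description. Without the steep libraries r between Fgf23 and Awat1 was -0.23 over the mice (permutation p = 0.239) and -0.412 within groups (permutation p = 0.0785).

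**Figure D4:**
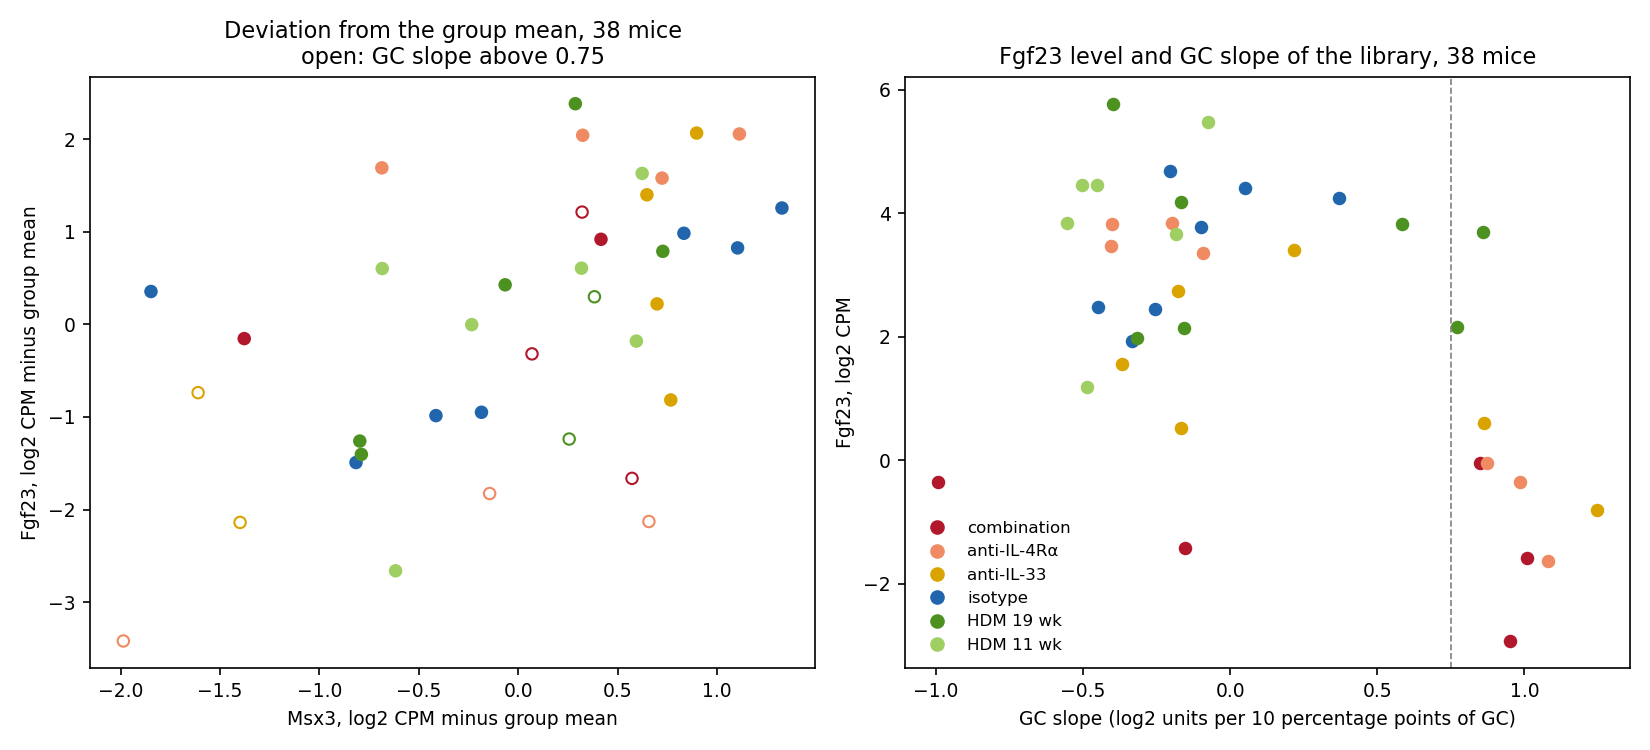
Left, Fgf23 against Msx3 as log2 CPM minus the group mean in 38 mite-exposed mice, with open circles for libraries of GC slope above 0.75 (r = 0.53). Right, Fgf23 log2 CPM against the GC slope of the library, with a dashed line at 0.75. Most libraries to its right are low. The 2 with 19 weeks of mite lie higher, at 3.69 for replicate 2 and 2.15 for replicate 7, the latter at -1.238 from its group mean.

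The genes whose log2 CPM followed each of the 5 most closely over the 38 mice are given as a description. They were taken from the genes tested, leaving out the 5 and predicted genes. Differences between groups enter these r values. With group means removed r was lower for each gene named except Axl with Awat1 (0.877), down to 0.431 for A2m with Dlk1. Tmem26, a membrane protein gene, led for both Fgf23 (r = 0.919) and Msx3 (r = 0.875). It averaged 2.54 CPM with the combination and 19.8 CPM with isotype, and passed the edgeR test there (adjusted p = 0.00455). Next for Msx3 came Ptgdr, a prostaglandin D2 receptor (r = 0.871), Retnla, a resistin-like protein of type 2 responses (0.866), Rbp4, a retinol carrier (0.863), and Col6a5, a collagen (0.857). Next for Fgf23 came Tarm1, a receptor of myeloid cells (0.895), Rhou, a small GTPase (0.89), Irak1, a kinase below the IL-1 and IL-33 receptors (0.887), and Slc7a1, a cationic amino acid transporter (0.884). Dlk1 was followed by Fetub (0.77), Meg3 (0.726), Nfasc (0.698), A2m (0.695) and Cited1 (0.694), and Npy by Shisa6 (0.779), Rest, a repressor of neuronal genes (0.748), Megf11 (0.727), Procr (0.721) and Ypel4 (0.716). Awat1 had a different company: Bdh1, a ketone body enzyme (0.856), Ces2c, a carboxylesterase (0.848), Axl, a receptor for dying cells (0.825), Cfb, a complement factor (0.824) and Cib2 (0.82). Of these, Axl averaged 305 CPM with the combination and 169 CPM with isotype.

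Among the nearest 2 genes of the count table on each side of the 5, Meg3 shared 2 directions with its neighbour Dlk1. Both were higher under mite than with saline and lower with the combination than with isotype. Dlk1 averaged 6.95 ± 3.63 CPM at 11 weeks of mite and 80.5 ± 111 CPM at 19 weeks, where replicates 1 and 2 had 284 and 188 CPM. The mice of the 2 times overlapped, with medians of 8.07 and 31.7 CPM, and Dlk1 was not tested between them. Meg3 had like means at both times. Meg3 encodes a long noncoding RNA of the same imprinted cluster, expressed from the maternal allele, and begins 77660 bases beyond Dlk1. It averaged 90.1 ± 50.4 CPM at 19 weeks of mite and 92.5 ± 44.3 CPM at 11 weeks, against 9.09 ± 3.79 CPM with saline (log2 fold changes 3.31 and 3.34, adjusted p = 8.3e-06 and 1.59e-05 by edgeR). The combination mice had 16.3 ± 11.0 CPM and the isotype mice 94.0 ± 40.8 CPM (-2.53 ± 0.51, adjusted p = 0.00526 by edgeR; 0.0529 without the steep libraries). Of the other neighbours, Gsdme near Npy fell, at 0.596 ± 0.212 CPM with the combination and 1.65 ± 0.389 CPM with isotype (-1.44, adjusted p = 0.0214 by edgeR; 0.0563 without the steep libraries). Tigar, 2820 bases beyond Fgf23, had 12.6 ± 3.53 CPM with the combination and 14.4 ± 1.62 CPM with isotype, and Zfp511 beside Msx3 had 6.77 ± 1.12 and 7.79 ± 0.612 CPM; neither passed. Dgat2l6, a relative of Awat1 that lies 26139 bases before it, and Fgf6 before Fgf23 were at 0 CPM with the combination and at most 0.0269 CPM in any group mean.

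**Figure D5:**
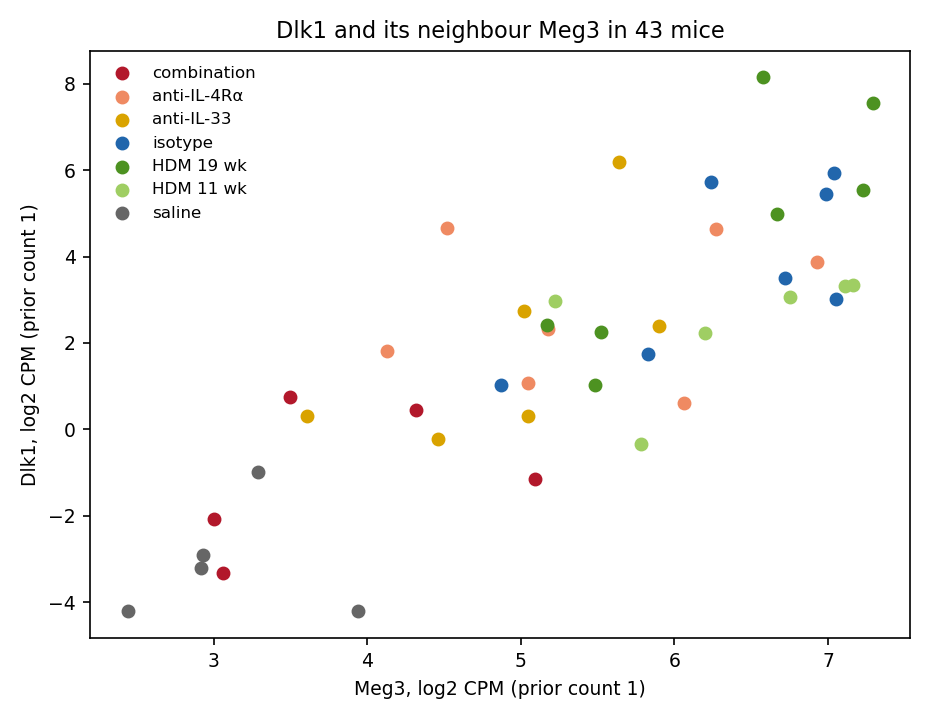
Dlk1 against its neighbour Meg3 as log2 CPM (prior count 1) in all 43 mice, coloured by group. Combination and saline mice lie mostly low for both, and the other mite-exposed mice lie mostly higher, with wide spread in Dlk1.

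The other imprinted genes of the list did not all go the same way. Beside Meg3, its cluster partners Rian and Mirg, both noncoding, fell with the combination against isotype, at 3.37 against 23.1 CPM for Rian (log2 fold change -2.77 ± 0.63, adjusted p = 0.0086 by edgeR) and 0.314 against 1.3 CPM for Mirg (-2.05 ± 0.59, adjusted p = 0.0228). Without the steep libraries neither passed edgeR's test (adjusted p = 0.0542 for Rian and 0.129 for Mirg). Mirg also missed it with the replicate number as a block (0.0612) and without combination replicate 1 (0.0903) or 8 (0.0636). Dio3, the far end of the cluster, encodes a thyroid hormone deiodinase and had 0.614 against 0.46 CPM (adjusted p = 0.778). Of 14 imprinted genes tested without Dlk1, 3 rose and 5 fell, where 12.6% of all genes rose and 6.32% fell; the median log2 fold change over these mixed directions was -0.28, against 0.037 over all genes tested. Cdkn1c, a cell cycle inhibitor imprinted elsewhere, rose (2.09 ± 0.48, adjusted p = 0.00912). At 19 weeks of mite against saline 5 of the 14 rose and 1 fell, where 19.2% of all genes rose and 15.6% fell; at 11 weeks 4 rose and 2 fell, where 8.65% and 6.74% of all genes did. Without the 10 steep libraries, 8 of the 39 genes outside the 5 that were followed in this comparison still passed.

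Genes that work with Fgf23 were examined from a list of 21, of which 14 were tested. At 19 weeks of mite against saline 8 rose and 3 fell, where 19.2% of all genes rose and 15.6% fell, with a median log2 fold change of 0.95 against 0.011 over all genes. Fam20c, the kinase that phosphorylates FGF23, rose to 120 CPM at 19 weeks, against 8.44 CPM with saline (3.83 ± 0.6, adjusted p = 5.47e-06 by edgeR), and Vdr, the vitamin D receptor, rose (1.22 ± 0.21, adjusted p = 2.74e-05). Kl, which encodes klotho, fell to 0.212 CPM, against 1.01 CPM with saline (-2.13 ± 0.55, adjusted p = 0.00293). With the combination against isotype 4 rose and 1 fell, where 12.6% of all genes rose and 6.32% fell. Without the steep libraries 1 of these 5 still passed, Galnt3, a glycosyltransferase that protects FGF23 from cleavage (1.87, adjusted p = 0.00435 by edgeR). Furin then lay at -0.27, and Fgfr3 (adjusted p = 0.411), Fgfr4 (adjusted p = 0.0584) and Dmp1 (adjusted p = 0.201) did not pass. In all libraries Fgfr4, an FGF receptor, rose to 40.2 CPM, against 7.47 CPM with isotype (2.43 ± 0.56, adjusted p = 0.0093), and Dmp1, a bone matrix protein that holds FGF23 down, fell to 0.0316 CPM, against 0.483 CPM with isotype (-3.44 ± 0.97, adjusted p = 0.0211). Cyp24a1, the kidney target that degrades vitamin D, was at 0 in every group.

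The partners of the other members were measured unevenly. Of 8 genes of the NPY list 2 were tested: Npy1r, a receptor for NPY, had 6.02 CPM with the combination and 9.52 CPM with isotype (adjusted p = 0.315), and Dpp4, the protease that trims NPY, fell at 19 weeks of mite to 40.3 CPM, against 122 CPM with saline (-1.6 ± 0.31, adjusted p = 0.000148 by edgeR). The receptor genes Npy2r, Npy4r and Npy5r were too low to test, with group means of at most 0.382 CPM. Of 15 Notch pathway genes tested, 6 rose and none fell with the combination against isotype, where 12.6% of all genes rose and 6.32% fell, among them Hey1, a Notch target (0.8 ± 0.2, adjusted p = 0.0144), and Notch3 (1.81 ± 0.53, adjusted p = 0.024). Without the steep libraries Notch3 lay at -0.39, Notch4 at -0.15 and Jag2 at -0.49, and Hey1 no longer passed (adjusted p = 0.107 by edgeR). Of 11 wax ester and acylglycerol genes tested 1 rose and 3 fell, against the same 12.6% and 6.32% of all genes; without the steep libraries none of these 4 passed, and the one that rose, Dgat2, lay at -0.04. Awat2, the enzyme closest to Awat1 in function, had 0.789 CPM with the combination and 0.536 CPM with isotype and did not pass, and Soat2, which makes cholesterol esters, fell (-1.31 ± 0.29, adjusted p = 0.0075). Of 11 homeobox and BMP genes 1 rose, where 12.6% of all genes did: Smad6, a BMP inhibitor (2.43 ± 0.58, adjusted p = 0.0108; 1.18, adjusted p = 0.0635 without the steep libraries). Msx1, the related homeobox gene, had 2.51 CPM with the combination and 2.7 CPM with isotype, and Msx2 had group means of at most 0.0476 CPM.

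Markers of cell types that could hold these genes were summed. The lung markers, such as Sftpc and Scgb1a1, were present throughout, with sums from 17100 to 65000 CPM per mouse. The 8 markers of alternatively activated and TREM2 macrophages moved with the 5 genes under mite: their sum ran from 10800 to 23200 CPM at 19 weeks and from 16300 to 28000 CPM at 11 weeks, against 222 to 789 CPM with saline, and all 8 rose at both times. With the combination the sum ran from 7230 to 15000 CPM, against 9450 to 28900 CPM with isotype, and 3 of the 8 fell; Arg1, the arginase of these cells, averaged 10.8 CPM with the combination and 242 CPM with isotype (-4.48 ± 0.92, adjusted p = 0.00549 by edgeR). Their part in the results was not tested. Over all genes 12.6% rose and 6.32% fell in this comparison, a split that the GC covariate turned to 1005 higher and 1542 lower. Alveolar macrophage markers moved the other way (170 to 615 CPM with the combination, 52.7 to 218 CPM with isotype; 3 of 6 rose), as did adipocyte markers (28.2 to 544 CPM and 9.32 to 29.2 CPM; 6 of 6 rose) and 4 of 7 erythroid and platelet markers (512 to 10500 CPM and 255 to 915 CPM). Goblet cell markers ran from 204 to 694 CPM with the combination and 157 to 991 CPM with isotype, with 2 of 6 higher and 1 lower, and alveolar type 2 markers from 13300 to 31000 CPM and 13800 to 22000 CPM, with 1 of 6 higher.

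Markers of the tissues where the 5 genes are best known were mixed. The 7 osteocyte and osteoblast markers summed to 2.55 to 27.2 CPM with the combination, 4.15 to 14.0 CPM with isotype, 5.97 to 11.0 CPM at 19 weeks, 3.68 to 15.7 CPM at 11 weeks and 4.46 to 5.71 CPM with saline, and Mepe was at 0 in every group. Of that list 2 were tested, Dmp1 and Phex. Dmp1 rose at 19 weeks against saline (2.43, adjusted p = 0.0238 by edgeR) and fell with the combination, as given above. Phex passed in neither comparison (0.81, adjusted p = 0.188 at 19 weeks and 0.23, adjusted p = 0.724 with the combination, by edgeR). The 9 neuronal and neuroendocrine markers summed to 6.66 to 29.6 CPM with the combination, 6.47 to 9.9 CPM with isotype, 5.78 to 16.6 CPM at 19 weeks, 6.79 to 12.3 CPM at 11 weeks and 8.83 to 12.3 CPM with saline. Of the 4 of them tested, 1 rose and 1 fell at each time. Over all genes 19.2% rose and 15.6% fell at 19 weeks, and 8.65% and 6.74% at 11 weeks. Calca, which encodes the neuropeptide CGRP and calcitonin, rose to 4.91 CPM at 19 weeks and 5.01 CPM at 11 weeks, against 0.532 CPM with saline (3.19 and 3.21, adjusted p = 5.97e-07 and 1.08e-06 by edgeR). Resp18 fell at 19 weeks (-3.05, adjusted p = 0.00189 by edgeR) and Chgb at 11 weeks (-1.59, adjusted p = 0.0342 by edgeR). Calca fell to 0.946 CPM with the combination, against 2.73 CPM with isotype (-1.52, adjusted p = 0.0182 by edgeR). Syp, a synaptic vesicle gene, rose to 13.4 CPM, against 4.3 CPM with isotype (1.63, adjusted p = 0.0242 by edgeR), and was the largest part of the sums in both groups. Th, the enzyme of noradrenergic nerves, was at 0 in the combination, anti-IL-4Ra, anti-IL-33 and isotype groups. The part of these markers in the results was not tested. The 8 sebaceous and squamous markers were highest in single mice with 19 weeks of mite (2060 CPM) and saline (7250 CPM), and had medians of 6.49 CPM with the combination, 8.4 CPM with isotype, 9.16 CPM at 19 weeks, 5.48 CPM at 11 weeks and 9.02 CPM with saline. Thymocyte markers summed to at most 4.87 CPM with the combination and 4.88 CPM with isotype, against at most 22.3 CPM with saline.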

How the data were processed

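Whole-lung RNA of 43 mice was sequenced. Per the labels' protocols, libraries were made from 500 ng of RNA with a strand-specific mRNA kit and 12 PCR cycles and read for 33 cycles as single reads. The authors deposited expected counts, estimated reads per NCBI Gene ID that were not scaled to library size; 76.99% of nonzero values were whole (tolerance 1e-09). The genome build was mm10, per the submitters' processing notes; the aligner, counting program, annotation and strand setting were not given in the sources used here. Symbols came from RefSeq's GRCm38.p6 annotation, in which 24375 of 24475 Gene IDs had one.

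Counts were rounded, filtered with edgeR's filterByExpr (15979 genes) and scaled with TMM. All 43 libraries entered a single robust quasi-likelihood fit of group means in edgeR 4.0.16 under R 4.3.3 (36 residual degrees of freedom; common coefficient of biological variation 0.431), with 2-sided tests and Benjamini-Hochberg adjustment over all genes tested. In a simulation of the combination against isotype, 100 genes were given a 2-fold change and 100 a 4-fold change, with 15979 genes in all. Of these changes 40% of the 2-fold and 81% of the 4-fold ones were recovered. Whether these shares hold for genes of low count, or for libraries that differ in GC slope, was not tested. Correlations used 1e+05 permutations. CPM in libraries of 11932579 to 26749395 counts resolves single reads, and bounds cover counting error only.

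The 5 genes and all lists were chosen with earlier results of these data known. Beside the 5, the text names up to 4 genes of each list that passed a test, by lowest adjusted p, list markers, the nearest 2 genes on each side, the 5 genes with the highest correlation, and the 2 genes on each side of the selection limit. Furin lay outside this rule, and Jag2 lay outside it for the combination against isotype. Also chosen after their values were seen, whether or not the rule covers them, were Kl, Cyp24a1, Dio3, Npy1r, the other NPY receptors, Notch3, Msx1 and Msx2. Alternatives were DESeq2 1.42.0, other scalings and filters, the replicate number as a block, the library's GC slope entered as a covariate or used as a limit, the compared groups alone, and leaving out each library. The GC slope is that of a library's relative log2 expression on transcript GC content; the limit of 0.75 came from an earlier analysis. Same-numbered samples of different groups did not all correlate above 0.1 in their deviations from group means, so the numbers were not taken to pair mice.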

Additional observations from a re-analysis of the deposited data

Results flagged for a closer look

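Log2 CPM of the 5 genes in 7 groups gave 35 sets of values, in 3 of which the lowest mouse stood far from the others; chance flags about 1 in 20. Msx3 was at -4.21 in combination replicate 3, which had 0 CPM while the other 4 mice had 1 or 2 counts each. Npy was at 2.18 in combination replicate 5, or 4.49 CPM, with the other 4 mice between 13 and 19.1 CPM. Dlk1 was at -0.34 in replicate 9 of 11 weeks of mite, or 0.736 CPM, with the other 5 mice between 4.68 and 10.1 CPM; the same mouse had the highest Msx3 (7.75 CPM) and Fgf23 (44.5 CPM) of its group.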

How the results depend on the processing

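Msx3 and Fgf23 stayed lower with the combination than with isotype, past the threshold of edgeR's or DESeq2's adjusted p, in every alternative run. Between the combination and isotype, the fit with the replicate block put Npy at -1.58 (log2, as all fold changes here), and leaving out the 10 steep libraries put it at -1.63, neither past the threshold; leaving out single libraries gave -1.92 to -1.37. Dlk1 was at -7.0 without the steep libraries, not past the threshold, and at -5.91 to -4.91 without single libraries. Awat1 turned to -0.13 with the GC covariate and -0.4 without the steep libraries, and ran from -0.01 to 0.48 without single ones. Against anti-IL-4Ra, Msx3 missed the threshold with the replicate block (-3.79) and with the compared groups alone (-3.89), and ran from -4.11 to -3.52 without single libraries; Fgf23 passed it with the GC covariate (-3.56), with DESeq2 (-3.98) and without anti-IL-4Ra replicate 2 (-4.16) or 8 (-4.15), both steep, and ran from -4.34 to -3.7 without single libraries, and Dlk1 passed it with DESeq2 (-3.91). Against anti-IL-33, Msx3 ran from -3.97 to -3.38 without single libraries, and Npy was at 0.07 with the block and -1.05 to 0.06 without single ones. For anti-IL-4Ra against anti-IL-33, Msx3 was at -0.06 with the block, -0.05 without steep libraries and -0.06 to 0.31 without single ones; Npy at 0.41 and -0.49 to 0.62, and Dlk1 at 0.75 and -0.79 to 1.9, with the block and without single libraries; and Awat1 at -0.05 to 0.29. For isotype against 19 weeks of mite, Fgf23 ran from -0.49 to 0.5, and the Npy interaction from -0.01 to 1.24. Correlations within groups were 0.373 for Msx3 and Dlk1, 0.305 for Npy and Dlk1, 0.102 for Fgf23 and Dlk1, -0.411 for Fgf23 and Awat1 and -0.034 for Msx3 and Npy. Over the mice, without steep libraries, they were -0.23 for Fgf23 and Awat1 (-0.412 within groups), 0.437 for Npy and Fgf23 (0.592 within groups) and -0.019 for Msx3 and Npy (0.108 within groups). Without those libraries Furin was at -0.27, Notch3 -0.39, Notch4 -0.15, Jag2 -0.49 and Dgat2 -0.04 in the combination against isotype. The causes were not tested. The block moved the calls over all genes in that comparison to 262 higher and 289 lower, against 2019 and 1010 without it, and same-numbered mice had correlations from -0.289 to 0.393. Other counts there were 1005 and 1542 with the GC covariate, 479 and 207 without steep libraries, 1325 and 499 with the compared groups alone, and 81 to 4045 higher and 126 to 3854 lower without single libraries, the fewest without combination replicate 1. Against anti-IL-4Ra the combination's calls were 122 higher and 486 lower with the GC covariate, 0 and 0 with the block or the groups alone, and 33 and 115 by DESeq2. Without anti-IL-33 replicate 7, anti-IL-33 against isotype gave 86 and 51. Depth limits Msx3 most: the 5 combination mice held 7 counts of it in all.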
